A study of Mus musculus with 119 samples.

Results

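This comparison asks what the loss of FoxO transcription factors does to the RNA of muscle stem cells in mice of 8 days. It sets 6 RNA-seq libraries labelled FoxO1,3a,4KO (KO) against 4 labelled FoxO1,3a,4WT (WT), 10 libraries in a series of 119 labelled samples. The 10 libraries were chosen as the columns of 1 deposited count table whose names start with KO or WT at 8 days. Of the 9 samples the labels list at this age, 6 are KO and 3 are WT, while the table holds 4 WT columns. No label ties a WT column to a sample, so the WT columns were used as a group, and 1 of them has no labelled sample among those used here.

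The cells were satellite cells, the stem cells of skeletal muscle, sorted without culture from resting, uninjured muscle. Cells bearing CD45, Sca-1 or CD31, which mark leukocytes, fibro-adipogenic cells and endothelium, were sorted away, and cells with α7-integrin and CD34 on their surface were kept. The label CD34All says that the cells were not split further by the amount of CD34. KO stands for deletion of FoxO1, FoxO3a and FoxO4 and WT for the matching control. Which Cre line or promoter drove the deletion, which exons it removes, what the WT animals carry and whether animals were pooled is not stated in the labels. A second table with the same 2 genotypes at 21 days (3 WT and 4 KO libraries) was used for comparison of the ages. Nothing in the labels ties each library of a group to its own animal. The p-values therefore rest on the spread among these libraries, which may in part be technical.

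FoxO proteins are forkhead transcription factors that sit at the end of the insulin and IGF signalling pathway. When growth factors activate PI3K and AKT, AKT phosphorylates FoxO proteins and they leave the nucleus. When the pathway is quiet they enter it and switch on genes of cell cycle arrest, stress resistance, autophagy and fuel use, and also genes of the insulin pathway itself. In adult muscle, FoxO factors are known for keeping satellite cells quiescent. At 8 days of age muscle is still growing fast, and many satellite cells divide or commit to fusion.

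Forkhead factors bind a short DNA motif, and its matches are shown here as places in a promoter where a forkhead factor could bind. The letters GTAAACA, and TGTTTAC as their form on the opposite strand, were searched in RefSeq promoters of GRCm38.p6, each running from 250 bases before to 50 bases after a start site. Among genes that were lower in KO, 44 of 59 had a promoter in the RefSeq table and 4 of these (9.09%) held the motif. Of all genes tested, 310 of 10525 with a promoter (2.95%) held it, and of all 32851 promoters 3.65%. No motif was found for the 13 matched genes among the 20 that were higher in KO. The 4 genes were Tmem140, Ypel3, Sesn1 and Wbp1l. Motif matches are in capitals in the following stretches of the plus strand, 5′ to 3′.
Tmem140, chr6:34862990-34863160: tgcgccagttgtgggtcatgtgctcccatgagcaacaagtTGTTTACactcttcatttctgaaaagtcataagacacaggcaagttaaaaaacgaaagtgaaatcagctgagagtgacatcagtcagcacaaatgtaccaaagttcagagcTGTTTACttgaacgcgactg
Ypel3, chr7:126776977-126777006: ctggtctcggtGTAAACAagtcgaggcggc
Sesn1, chr10:41810585-41810614: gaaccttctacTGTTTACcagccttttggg
Wbp1l, chr19:46623360-46623415: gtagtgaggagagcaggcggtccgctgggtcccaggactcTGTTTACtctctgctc
Tmem140 held 2 matches, which start 116 and 5 bases before its start site. In Ypel3 and Sesn1 the match starts at bases 26 and 23 after the start. Sesn1 encodes a stress protein that restrains mTOR signalling, and Ypel3 a growth suppressor. A match describes letters in a window and was not tested as a binding site.

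The deleted genes were examined first, because they check the labels. Levels are in CPM, read counts scaled to the TMM-adjusted size of the library, and libraries are numbered within each genotype by the number in their column name. Foxo4 (chrX:101254528-101260873, mm10) measured 120, 122, 128 and 143 CPM in WT 1 to 4. In KO 1 to 6 it measured 8.24, 133, 2.83, 1.67, 7.29 and 2.32 CPM. All KO libraries but KO 2 were thus far below WT, and KO 2 lay within the WT range. Foxo1 (chr3:52268336-52353221) showed the same order, with 68.5, 72.9, 65.1 and 80.7 CPM in WT and 18.5, 73.6, 8.28, 2.81, 9.63 and 4.22 CPM in KO. The library labelled KO 2 therefore goes against its label on both genes, and results are given with it and without it. With all 10 libraries the log2 difference, KO minus WT, was -2.30 ± 1.05 (SE) for Foxo4 and -1.87 ± 0.72 for Foxo1 (edgeR adjusted p = 0.834 for both). With KO 2 set aside, the log2 difference was -4.82 ± 0.44 for Foxo4 and -3.04 ± 0.43 for Foxo1, which is a description, since these 2 genes decided which library was left out.

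Foxo3, which encodes the FoxO3a protein, was not lower in the counts. It measured 30.2, 31.3, 23.4 and 21 CPM in WT and 47.2, 30.2, 24, 11.7, 22.1 and 35.6 CPM in KO, and the genotypes overlapped (log2 fold change without KO 2 0.09 ± 0.33, edgeR adjusted p = 0.917). Counts cover the whole gene, and reads from a part of it that is not deleted would be counted, so this value neither checks nor refutes the label. Foxo6, the family member that is not named in the genotype, measured 15.5 to 22.8 CPM in WT and 9.27 to 34.6 CPM in KO (0.33 ± 0.30, adjusted p = 0.629).

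**Figure D1:**
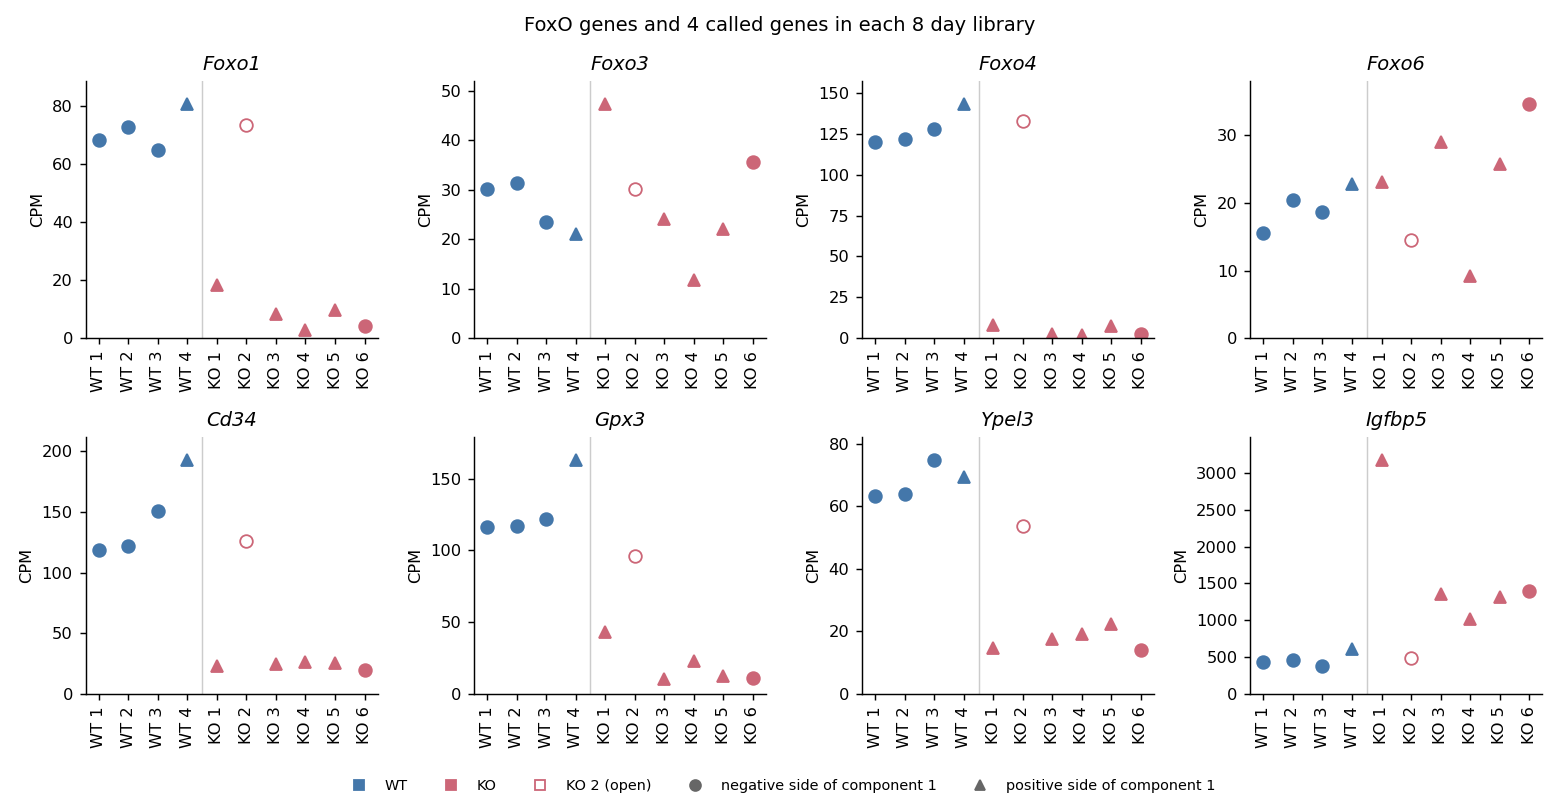
CPM of the 4 FoxO genes (top) and of Cd34, Gpx3, Ypel3 and Igfbp5 (bottom) in each 8 day library, with WT in blue, KO in red and KO 2 open; circles and triangles mark the sides of the first principal component. KO 2 sits with the WT libraries for Foxo1 (73.6 CPM), Foxo4 (133 CPM) and Cd34 (126 CPM), while Foxo3 and Foxo6 overlap between the genotypes.

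Total counts ran from 17.7 M to 51.3 M in the 8 day libraries. Libraries of a genotype differed by more than sampling noise in every pair, with a chi-square of at least 10.8 per degree of freedom in WT and 58.5 in KO, and each counts as 1 sample. All 10 libraries expressed the Y-linked Ddx3y (110 to 181 CPM) and almost no Xist (0.116 to 1.02 CPM), so sex does not differ between the genotypes. Satellite cell genes were present throughout, with Pax7 at 52.1 to 156 CPM and Itga7, which encodes α7-integrin, at 357 to 652 CPM. Ptprc, the CD45 gene, was at most 0.57 CPM, Pdgfra at most 4.5 CPM and the Sca-1 gene Ly6a at most 3.32 CPM. KO 1 stood apart in endothelial genes, with Pecam1 at 15.2 CPM and Cdh5 at 20.4 CPM against at most 1.72 and 1.76 CPM in the other 9. It was also highest in the summed adipocyte genes (103 against at most 21.7 CPM) and immune genes (33.7 against at most 16.3 CPM). Its sum of fibro-adipogenic genes was the highest as well (14200 against at most 10500 CPM). Its sum of myogenic commitment genes was the lowest (5190 against at least 6820 CPM). In bulk samples, fewer cells of a type and less RNA per cell cannot be told apart.

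The libraries also split in a way the genotype labels do not give. The first principal component held 41% of the variance and put WT 1, WT 2, WT 3, KO 2 and KO 6 on its negative side and WT 4, KO 1, KO 3, KO 4 and KO 5 on its positive side. The positive side had more immediate-early RNA, from genes such as Fos that respond within minutes to stimuli. Summed over 40 such genes it measured 14900 to 29400 CPM there and 6780 to 11100 CPM on the negative side. Schwann cell genes summed to 1710 to 4030 CPM against 1110 to 1250 CPM, and pericyte and smooth muscle genes to 2010 to 4490 against 2000 to 2240 CPM. In a fit without KO 2 and with genotype and side as terms, 1227 genes were higher and 1601 lower on the positive side (edgeR, adjusted p under 0.05, 14025 genes tested). Of the remaining libraries 4 of 5 lie on the positive side, and of the WT libraries 3 of 4 on the negative side, so that side and genotype are partly confounded. The sides were drawn from the RNA levels of these same libraries. Counts and p-values by side, here and below, therefore describe that split and do not test it. Values with side as a term, a choice made after seeing the data, are given beside many of the results.

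**Figure D2:**
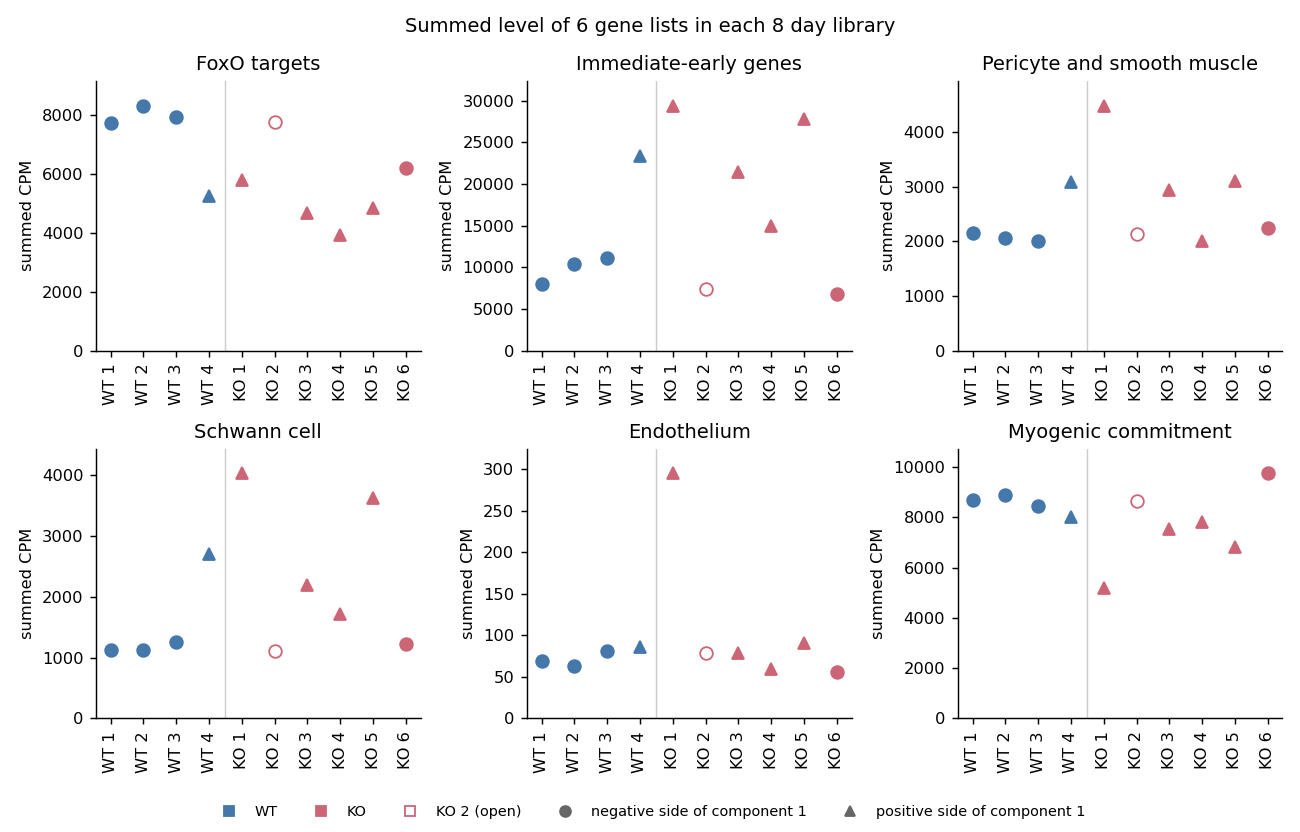
Summed CPM of 6 gene lists in each 8 day library; colours and symbols as in the plot of FoxO genes by library. Immediate-early and Schwann cell sums separate the triangles from the circles in both genotypes, the FoxO target sum is highest in WT 1 to WT 3 and KO 2, and the endothelial sum is high in KO 1 alone (295 CPM).

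With all 10 libraries, no gene passed the threshold. Among 14083 genes tested by edgeR's quasi-likelihood test with Benjamini-Hochberg adjustment, 0 (0%) had an adjusted p under 0.05, 715 had an unadjusted p under 0.05, and DESeq2 called 20 (16 higher and 4 lower in KO). Without KO 2, 81 of 14025 genes passed (0.578%), 20 of them higher in KO (0.143%) and 61 lower (0.435%), and 1667 had an unadjusted p under 0.05. Leaving out Foxo1 and Foxo4, 59 genes fell and 20 rose. For 76 of the 81 the WT and KO libraries without KO 2 did not overlap, against 3.77% of all genes tested. The 81 were called on these same libraries, so that count is a description. KO 2 was nearer to the WT mean than to the mean of the other KO libraries for all 81 genes and lay inside the WT range for 54. KO 2 was not used to call them, but Foxo1 and Foxo4, both among the 81, decided that it was set aside.

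The count depends on single libraries. It was 12 without WT 3, 15 without WT 2, 19 without WT 1, 27 without KO 3, 30 without KO 5, 50 without KO 4, 99 without KO 1, 156 without KO 6 and 338 without WT 4. With side as a term it was 53, of which 40 were among the 81, and all 81 kept their sign. The 12 genes that stayed past the threshold whichever library was left out were Foxo4, Hpse, Cd34, 4632428N05Rik, Otoa, Ypel3, Vsig10, Slc43a2, Gatsl2 and Gpr50, all lower in KO, and Rassf2 and Atp2b3, both higher. Foxo4 stands here as a description, since it and Foxo1 decided that KO 2 was set aside. Each of the other 69 of the 81 lost its call when some single library was left out. Within the negative side, KO 6 lay below WT 1, WT 2 and WT 3 for all 59 lower genes and above them for all 20 higher ones. Within the positive side, all 4 KO libraries lay below WT 4 for 58 of the 59 and above it for 19 of the 20. The genes were called on these same libraries, so those counts are a description.

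Cd34 had the smallest adjusted p of all genes. It encodes the sialomucin CD34 that marks quiescent satellite cells and that was itself used in the sort. Cd34 (chr1:194938819-194961279) measured 119, 122, 151 and 193 CPM in WT and 23.3, 24.3, 26, 25.3 and 19.2 CPM in KO 1, 3, 4, 5 and 6. The KO values lay within a narrow band well below every WT library, and KO 2, with 126 CPM, was at the WT level. The log2 fold change was -2.63 ± 0.17 without KO 2 (edgeR adjusted p = 5.61e-05) and -1.84 ± 0.49 with it (adjusted p = 0.834). With side as a term it was -2.87 (adjusted p = 1.11e-06).

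Other genes of the quiescence list were mixed. Of 38 genes tested, 4 fell, none rose, and the median log2 fold change was -0.02, against 0.03 over all genes. Of all genes tested, 0.435% fell and 0.143% rose. The genes that fell were Cd34, Gpx3, Tenm4 and Calcr. Calcr encodes the calcitonin receptor, through which quiescent satellite cells receive a signal that holds them in place. It measured 191, 169, 177 and 203 CPM in WT and 119, 86, 109, 88 and 76.8 CPM in KO without KO 2 (195 CPM), a log2 fold change of -0.95 ± 0.15 (adjusted p = 0.0191). Tenm4, a teneurin of the cell surface, fell by 1.09 on the log2 scale (adjusted p = 0.0322), but not past the threshold with side as a term (-0.87, adjusted p = 0.104). Spry1, an inhibitor of FGF signalling in quiescence, missed the threshold at -0.93 ± 0.20 (adjusted p = 0.0746), although its KO libraries (102 to 231 CPM with KO 2) were all below WT (275 to 379 CPM). Spry1 did pass with side as a term (-1.22, adjusted p = 0.0447). Pax7, the transcription factor that defines satellite cells, measured 107 to 156 CPM in WT and 52.1 to 112 CPM in KO (-0.49 ± 0.21, adjusted p = 0.395).

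A few antioxidant genes fell. In the redox list 3 of 28 genes tested fell and none rose, with a median of 0.09. Over all genes tested, 0.435% fell, 0.143% rose and the median was 0.03. Gpx3 (chr11:54902453-54910377) encodes a secreted glutathione peroxidase. It measured 116, 117, 122 and 163 CPM in WT and 43.1, 10.2, 23, 12.6 and 10.7 CPM in KO without KO 2. Every one of these KO libraries was below every WT library, KO 1 was the highest of them, and KO 2 measured 95.9 CPM. The log2 fold change was -2.70 ± 0.40 (adjusted p = 0.013). Sepp1, the selenoprotein that carries selenium in plasma, had 170 to 190 CPM in WT and 40.5 to 108 CPM in KO without KO 2 (-1.41 ± 0.23, adjusted p = 0.0224). Sesn1 measured 85.8, 86.5, 90.4 and 60.2 CPM in WT and 41.3, 45.2, 44.5, 45.1 and 37.2 CPM in KO (-0.92 ± 0.15, adjusted p = 0.0201, and 0.0855 with side as a term). The mitochondrial superoxide dismutase gene Sod2 and catalase (Cat), both widely cited FoxO targets, did not pass, with log2 fold changes of 0.16 (adjusted p = 0.588) and -0.32 (adjusted p = 0.501).

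Known FoxO targets leaned lower. The list was taken from textbook targets in several tissues, and 42 of its 43 genes were tested. Of these, 5 fell (Pik3ip1, Pdk4, Cited2, Sesn1 and Insr) and none rose, where 0.435% of all genes tested fell and 0.143% rose. Their median log2 fold change was -0.61 against 0.03 over all genes tested, and 32 of 42 were negative against 46.0% of all genes. With side as a term the median was -0.29, and Pik3ip1, Pdk4 and Txnip were the 3 that fell, while Cited2 (-0.86, adjusted p = 0.146) and Insr (-0.80, adjusted p = 0.112) did not pass. At 21 days the median was -0.28. The summed level was 7720, 8330, 7940 and 5260 CPM in WT 1 to 4 and 5810, 7780, 4660, 3930, 4840 and 6220 CPM in KO 1 to 6. WT 4 thus lay among the KO libraries, and KO 2 among the other WT libraries. The motif GTAAACA stood in 6 of 35 matched promoters of this list (17.1%), those of Bbc3, Bcl2l11, Mxi1, Sesn1, Trim63 and Txnip.

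Within the list, members differed in how far they followed the side of the first component. Pik3ip1, an inhibitor of PI3K, measured 11.8, 14.9, 18 and 10.5 CPM in WT and 3.59, 1.92, 1.41, 4.16 and 2.47 CPM in KO without KO 2. It fell by 2.34 on the log2 scale (adjusted p = 0.00996), did not overlap between genotypes and gave, with side as a term, -2.23 by genotype (adjusted p = 0.0368) and -0.16 by side (adjusted p = 0.811). Pdk4 (chr6:5483351-5496309) encodes a kinase that inhibits pyruvate dehydrogenase. It measured 776, 954, 841 and 221 CPM in WT and 146, 119, 110, 93.1 and 286 CPM in KO without KO 2. WT 4 lay below KO 6, so the genotypes overlapped, and the log2 fold change was -2.21 (adjusted p = 0.0399). In the fit with side as a term, Pdk4 gave -1.24 by genotype (adjusted p = 0.0245) and -1.61 by side (adjusted p = 0.000894). Txnip, which binds thioredoxin and limits glucose uptake, showed the same pattern, with 1230, 1420, 1430 and 285 CPM in WT and 131, 134, 86.2, 146 and 481 CPM in KO. It did not pass by genotype alone (-2.48 ± 0.54, adjusted p = 0.0861). With side as a term it passed by genotype (-1.34, adjusted p = 0.00861) and by side (-2.10, adjusted p = 0.000196). Fbxo32, the ubiquitin ligase of muscle atrophy, gave -1.63 by genotype without that term (adjusted p = 0.284). With the term it gave -0.36 by genotype (adjusted p = 1) and -2.05 by side (adjusted p = 0.00146). The cell cycle inhibitors Cdkn1b (-0.58, adjusted p = 0.222) and Cdkn1a (-0.01, adjusted p = 0.988) did not pass. The part that the difference in side has in these values was not tested beyond the fit with side as a term.

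**Figure D3:**
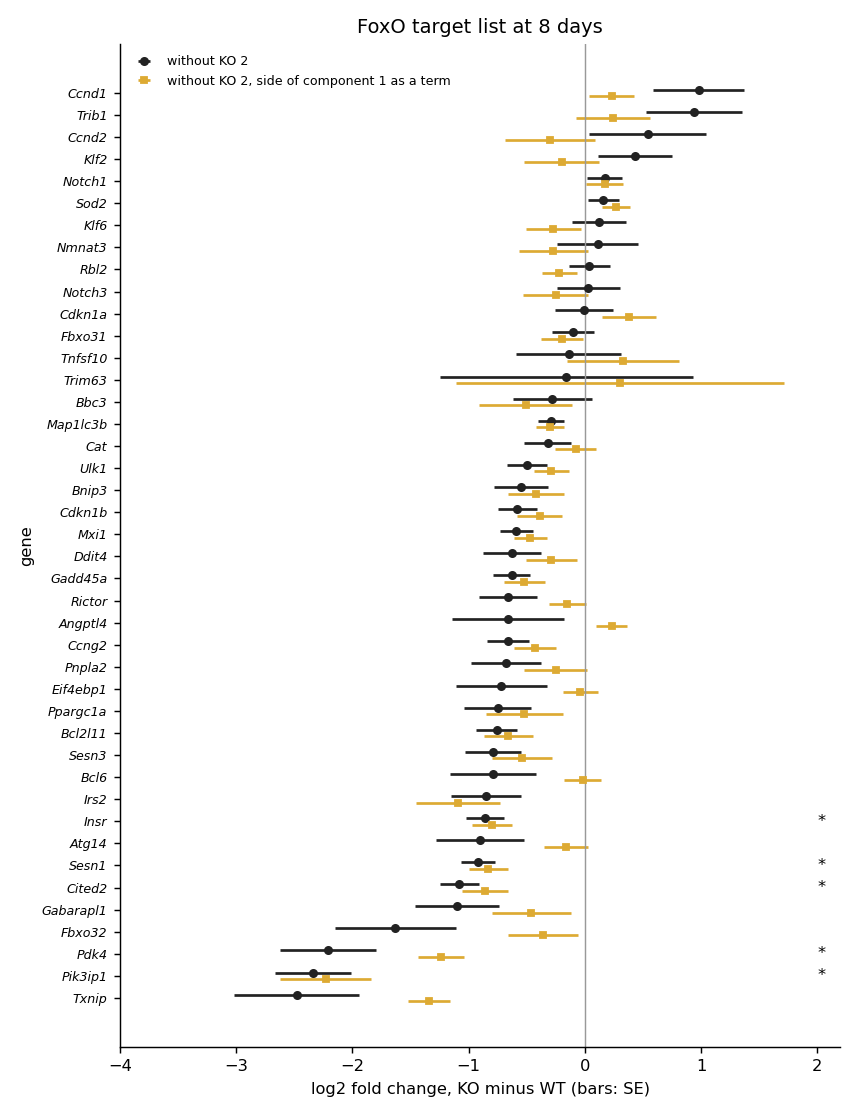
Log2 fold change (KO minus WT, bars are SE) of the 42 tested genes of the FoxO target list at 8 days, without KO 2 (black) and with the side of the first principal component as a further term (yellow); stars mark the 5 genes past adjusted p 0.05 in the former. Pik3ip1, Cited2, Sesn1 and Insr lie at similar values in both fits, while Txnip, Pdk4, Fbxo32 and Atg14 move toward 0 with the side term.

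Genes of the insulin and IGF pathway itself changed at the level of receptors, an inhibitor and a binding protein. The list of this pathway has the calls of Insr and Pik3ip1 in common with the target list. Of its 40 genes tested 3 fell, 1 rose, and the median was -0.23. Over all genes tested, 0.435% fell, 0.143% rose and the median was 0.03. Igf1r (chr7:67952827-68233668), the IGF1 receptor, measured 315, 303, 311 and 188 CPM in WT and 77.8, 113, 102, 107 and 183 CPM in KO without KO 2 (325 CPM). The highest KO library was just below WT 4, and the log2 fold change was -1.26 ± 0.24 (adjusted p = 0.0403). The fit with side as a term gave -0.83 by genotype (adjusted p = 0.0349) and -0.80 by side (adjusted p = 0.00412). Insr, the insulin receptor, measured 61.3 to 68 CPM in WT and 25.2 to 42.6 CPM in KO without KO 2 (-0.86 ± 0.16, adjusted p = 0.0364). Irs1 and Irs2, the adaptors below the receptors, had log2 fold changes of -1.06 (adjusted p = 0.123) and -0.85 (adjusted p = 0.343). The kinases Akt1 and Akt2 had -0.11 and -0.12, and neither passed.

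Igfbp5 (chr1:72857932-72874884), which encodes a secreted IGF-binding protein made by myogenic cells, rose. It measured 427, 457, 384 and 615 CPM in WT and 3180, 1350, 1010, 1320 and 1400 CPM in KO without KO 2, which measured 482 CPM. KO 1 was the highest by far, and the log2 fold change of 1.81 ± 0.31 (adjusted p = 0.0279) was 1.44 without KO 1. With side as a term it was 1.60 and did not pass (adjusted p = 0.0853). Igf1 (0.99, adjusted p = 0.345) and Igf2 (-0.36, adjusted p = 0.536), the ligands, did not pass.

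The other large falls were of genes outside these lists. Ypel3 (chr7:126776955-126780514) measured 63.3, 64, 74.9 and 69.6 CPM in WT and 14.8, 17.6, 19.1, 22.5 and 14.1 CPM in KO without KO 2 (53.6 CPM), a log2 fold change of -1.95 ± 0.16 (adjusted p = 0.000441). Otoa, which encodes otoancorin, fell by 2.13 (adjusted p = 0.0016) and 4632428N05Rik by 2.56 on the log2 scale (adjusted p = 0.000715). Slc40a1, the iron exporter ferroportin, measured 13, 14.4, 13.1 and 4.63 CPM in WT and 1.31 to 3.07 CPM in KO without KO 2 (-2.48 ± 0.37, adjusted p = 0.0137). In the fit with side as a term it gave -1.76 by genotype (adjusted p = 0.0262) and -1.17 by side (adjusted p = 0.0171), lower on the positive side, where WT 4 lies. Cecr2, a chromatin remodelling factor, fell by 1.81 on the log2 scale (adjusted p = 0.0287), with WT 4 (41.4 CPM) below KO 6 (44.2 CPM). Its value with side as a term was -1.09 by genotype (adjusted p = 0.011) and -1.19 by side (adjusted p = 0.0011). Tmem140, with the motif pair shown above, measured 10.7, 14.3, 13.3 and 1.65 CPM in WT and 0.642 to 2.29 CPM in KO without KO 2. Its WT 4 value lay among the KO libraries, and the change of -2.97 ± 0.58 (adjusted p = 0.0478) became -1.70 with side as a term (adjusted p = 0.684).

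Several called genes outside the naming rule were picked after their values were seen. Hpse, the heparan sulfate-cutting heparanase, measured 7.53, 9.19, 9.38 and 11.5 CPM in WT and 0.225 to 0.879 CPM in KO without KO 2 (8.06 CPM), a log2 fold change of -3.88 ± 0.38 (adjusted p = 0.000715). Slc43a2, an amino acid transporter, fell by 1.74 on the log2 scale (adjusted p = 0.000988), Gatsl2 by 1.72 (adjusted p = 0.000552) and Vsig10 by 1.76 (adjusted p = 0.00624). Foxp1, another forkhead factor, measured 128 to 131 CPM in WT 1 to 3, 46.4 CPM in WT 4 and 32.3 to 39.8 CPM in KO without KO 2. It fell by 1.59 (adjusted p = 0.0224), and the value with side as a term was -1.04 (adjusted p = 0.189).

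Matrix, imprinted and blood lists held 1 call each, of 39, 19 and 2 genes tested, where 0.578% of all genes tested were called. Fbn1, the microfibril protein fibrillin-1, stood in the list of fibro-adipogenic cells and fell from 720 to 751 CPM in WT to 390 to 457 CPM in KO without KO 2, which had 906 CPM (-0.80 ± 0.10, adjusted p = 0.00624). The rest of that list did not move with it: 21 of 23 tested genes were positive, with a median of 0.78 by genotype, 0.01 with side as a term and 1.18 between the sides. Over all genes tested, 46.0% were negative and the median by genotype was 0.03. The summed level of the list overlapped between genotypes, with 6470 to 9880 CPM in WT and 6130 to 14200 CPM in KO without KO 2. Adamts5, a matrix protease, fell by 0.90 (adjusted p = 0.033), and the imprinted gene Zim1 by 1.13 on the log2 scale (adjusted p = 0.0163). Car2, a carbonic anhydrase placed in the erythroid list, fell by 1.89 (adjusted p = 0.0178), while the haemoglobin genes of that list had no reads in any library. Adamts5 (adjusted p = 0.127) and Car2 (adjusted p = 0.0503) did not pass with side as a term.

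Apart from Igfbp5, the risen genes named here by the rule were at low levels. Outside the rule, Bgn rose from a mean of 269 CPM in WT to 588 CPM in KO without KO 2 (1.13, edgeR adjusted p = 0.0495). Bgn overlapped between the genotypes and did not pass with side as a term (0.96, adjusted p = 0.15). Atp2b3 (chrX:73503086-73571005), a plasma membrane calcium pump, measured 3.11, 2.83, 2.62 and 3.77 CPM in WT and 15.4, 14.2, 8.95, 11.6 and 10.9 CPM in KO without KO 2 (3.68 CPM). The genotypes did not overlap, and the log2 fold change was 1.98 ± 0.24 (adjusted p = 0.00551). Rassf2, a Ras-association domain protein, measured 12.3, 12.8, 8.87 and 15.2 CPM in WT and 31.1, 33.7, 35.3, 35.8 and 27.3 CPM in KO without KO 2 (12.5 CPM), a change of 1.40 ± 0.18 (adjusted p = 0.0072). Btc, the EGF receptor ligand betacellulin, rose by 1.79 ± 0.24 (adjusted p = 0.00731), from 4.01 to 5.59 CPM in WT to 12.2 to 20.1 CPM. Ptprv, a receptor tyrosine phosphatase, rose by 2.42 ± 0.35 (adjusted p = 0.0124), from 1.65 to 3.15 CPM to 6.91 to 18.9 CPM. The cell adhesion gene Cdh20 (1.74), the calcium-binding gene Necab1 (1.68) and the synaptic scaffold genes Lin7a (1.37) and Begain (1.20) also passed, Begain alone of these 4 also with side as a term (1.36, adjusted p = 0.0262). Cdh20 moved to 1.12 with that term (adjusted p = 0.122) and was higher on the positive side (1.07, adjusted p = 0.0128). Outside the naming rule, Unc13c had the largest rise of the 20, with 0.171 to 0.303 CPM in WT and 1.15 to 4.92 CPM in KO without KO 2 (3.53 ± 0.50, adjusted p = 0.00996).

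Proliferation, ribosome and respiration genes did not pass in either direction. Over all genes tested 0.578% passed, so no call in a list of this size is near that share. The median over all genes tested was 0.03, and 46.0% were negative. Of 32 S phase genes tested, none passed, with a median of -0.03, and of 32 mitotic genes none passed, with a median of 0.12. Mki67 measured 278 to 427 CPM in WT and 266 to 451 CPM in KO without KO 2. None of 50 ribosomal protein genes (median -0.02), 42 respiratory chain genes (median 0.22, 40 positive), 36 autophagy and lysosome genes (median -0.14), 27 Notch pathway genes (median 0.03) and 31 interferon and antigen presentation genes (median 0.46) passed. Among the immediate-early genes none of 40 passed by genotype (median 0.58), while 26 were higher on the positive side (median 1.29). The count by side is a description, since the sides were drawn from these same libraries. Fos shows this, with 348, 414 and 508 CPM in WT 1 to 3 and 3060 CPM in WT 4, and with 290 CPM in KO 6 and 1730 to 3900 CPM in KO 1, 3, 4 and 5. The pericyte list (15 tested, median 1.19 by genotype and 0.02 with side as a term), the Schwann cell list (16 tested, 0.73 and 0.02) and the endothelial list (14 tested, 1.73 and 0.58) had no call by genotype. Neither did the immune (10 tested), adipocyte (4 tested) and tendon (6 tested) lists.

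Myogenic genes were called at 21 days and not at 8 days, while few passed the test of the difference between the ages. At 8 days none of the 37 tested genes of the myogenic commitment list passed, and their median log2 fold change was -0.09. Over all genes tested at 8 days 0.578% passed and the median was 0.03, so no call in such a list is near that share. At 21 days 13 of 37 rose and none fell, with a median of 0.93, where 290 of 14200 genes passed in all (2.04%), 126 higher (0.887%) and 164 lower (1.15%). Myofibre genes had 0 of 30 calls at 8 days (median 0) and 7 higher and 1 lower of 30 at 21 days (median 1.34). In the test of the difference itself, none of either list passed with all libraries. Without KO 2, 2 myogenic commitment genes (Myh3 and Myh8) and 0 myofibre genes passed. Unadjusted p was under 0.05 for 19 and 18 genes of the lists with all libraries, and for 945 of all 15053 genes tested. Myog, the factor that commits myoblasts to differentiate, measured 1040, 1070, 1010 and 1180 CPM in WT and 570, 980, 739, 969 and 1390 CPM in KO without KO 2 at 8 days (-0.21 ± 0.21, adjusted p = 0.655). At 21 days it measured 268, 355 and 295 CPM in WT and 799, 1030, 542 and 777 CPM in KO (1.36 ± 0.23, adjusted p = 0.00864). The difference between the effects was -1.56 and did not pass (adjusted p = 0.127). Each age has its own table, and levels were not compared between them.

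The difference between the KO effects at 8 and 21 days was tested in 1 model over the 17 libraries of both tables. With all libraries, 2 of 15053 genes passed (0.0133%), Myo18b and Dcx, and 945 had an unadjusted p under 0.05. Without KO 2, 4 of 15035 passed (0.0266%), the same 2 with the developmental myosin heavy chain genes Myh3 and Myh8. Myo18b, an unconventional myosin needed for sarcomeres, measured 57.1 to 96.7 CPM in WT and 48.3 to 99.5 CPM in KO without KO 2 at 8 days. At 21 days the values were 20.1, 21.5 and 19.4 CPM in WT and 78.8, 76.8, 76.7 and 65 CPM in KO, and the effects differed by -1.95 (adjusted p = 0.03). Dcx, the microtubule protein doublecortin, passed between the genotypes at 21 days and not at 8 days. It measured 63.1, 64.5, 49.2 and 51 CPM in WT and 67.6, 123, 135, 112 and 115 CPM in KO without KO 2 (70.6 CPM) at 8 days, and 4.88 to 7.96 against 38.9 to 90.8 CPM at 21 days. The log2 fold change was 0.96 (adjusted p = 0.0601) at 8 days and 3.29 (adjusted p = 0.000257) at 21 days, a difference of -2.42 (adjusted p = 0.03). Myh3 differed by -2.75 (adjusted p = 0.0112) and Myh8 by -2.82 (adjusted p = 0.018) without KO 2, and by -2.49 (adjusted p = 0.0849) and -2.51 (adjusted p = 0.127) with it. Leaving out single libraries gave 0 to 8 such genes. It gave 0 without WT 1, WT 2, WT 3, KO 3 or KO 5 at 8 days, or without any 1 of the 21 day libraries except KO 4, and without that one 6. It gave 6 without WT 4, 8 without KO 1, 3 without KO 4 and 6 without KO 6 at 8 days.

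Most 8 day calls had the same sign at 21 days, in libraries that were not used to call them. Leaving out Foxo1 and Foxo4, 78 of 79 had the same sign (98.7%), against 54.8% of the 13713 genes tested at both ages. Of these 79, 40 (50.6%) also passed at 21 days in the same direction, against 1.58% of all genes tested at both ages, and none passed in the opposite direction. The gene with the opposite sign was Gpr50, an orphan receptor related to melatonin receptors, with -1.14 (adjusted p = 0.00731) at 8 days and 0.69 (adjusted p = 0.447) at 21 days. Cd34 measured 226, 175 and 175 CPM in WT and 13.5, 12.4, 10.7 and 12.7 CPM in KO at 21 days, a log2 fold change of -3.97 (adjusted p = 3.67e-07). Gpx3 measured 922, 1520 and 1030 CPM in WT and 45.9, 62.1, 52.3 and 67.5 CPM in KO at 21 days (-4.35, adjusted p = 1.24e-06). Both effects were larger than at 8 days, but the difference between the ages did not pass for Cd34 (1.34 without KO 2, adjusted p = 0.094) or for Gpx3 (1.66, adjusted p = 0.409).

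**Figure D4:**
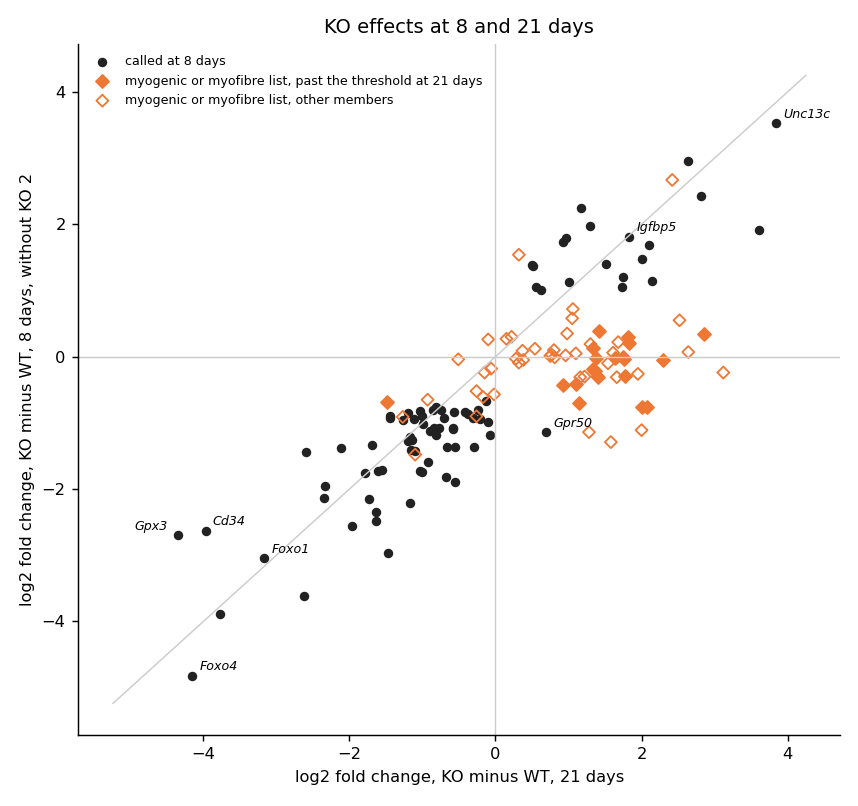
Log2 fold change (KO minus WT) at 21 days (x axis) and at 8 days without KO 2 (y axis); black points are the 81 genes called at 8 days, orange diamonds the myogenic commitment and myofibre lists, filled where adjusted p is under 0.05 at 21 days, and the grey diagonal marks equal effects. The black points lie in the quadrants of equal sign except Gpr50, and most filled diamonds lie to the right of 0 on the x axis and near 0 on the y axis.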

How the data were processed

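The deposited values are raw read counts per gene symbol, whole numbers with library totals that differ. The submitters' processing notes name HTSeq, Partek 7.0, TopHat2 2.1.1, Trim Galore, bcl2fastq 2.17.1 and, as genome, mm10. The labels state neither their order nor the annotation or whether strand was used. The tables hold 24421 symbols, 12 of them changed into dates, and 24409 are shared by both.

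Counts were fitted in R 4.3.3 with edgeR 4.0.16 (filterByExpr with a minimum count of 10 and a minimum total of 15, TMM scaling, quasi-likelihood F-test, Benjamini-Hochberg threshold 0.05 over all genes tested), and the steps were tested on simulated data. DESeq2 1.42.0, RLE size factors, no filter, and leaving out each library were alternatives. Positions are from GENCODE M21, promoters from RefSeq GRCm38.p6. Genes were named by rule: the FoxO family, the 12 largest rises and falls past the threshold with a mean of at least 5 CPM, and up to 4 members each way of each of 30 lists, or the first 2 measured members where none passed. Comparisons, lists and genes were chosen with earlier results of these data known. Other genes named were picked after their values were seen. Of the genes named by the rule, 1 is not reported here.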

Additional observations from a re-analysis of the deposited data

Results flagged for a closer look

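In 144 groups of named genes, 36 had 1 library far from the others. The nominal rate of about 1 flag in 20 groups does not apply, since many of these genes were named from a fit without KO 2. KO 2 accounts for 21 of the 36 flags, which follows in part from that choice. Its values in CPM, within or above the WT range for most, were 133 for Foxo4, 73.6 for Foxo1, 126 for Cd34, 12.1 for Tmem140, 29.7 for 4632428N05Rik, 12 for Slc40a1, 13.1 for Pik3ip1, 851 for Pdk4, 16.5 for Otoa, 53.6 for Ypel3 and 6.34 for Car2. The others were 125 for Cecr2, 114 for Ttn, 152 for Zim1, 184 for Tenm4, 145 for Cited2, 195 for Calcr, 85.5 for Sesn1, 93.5 for Adamts5 and 906 for Fbn1, all above the other KO libraries, and 12.5 for Rassf2, below them.

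WT 4 accounts for 10. It was above the other WT libraries for Gpx3 (163 CPM), Pdgfrb (74.2 CPM), Fos (3060 CPM) and Fosb (4840 CPM), and below them for Slc40a1 (4.63 CPM), Igf1r (188 CPM), Ttn (16.5 CPM), Igf2bp2 (39.4 CPM), Sesn1 (60.2 CPM) and Notch2 (269 CPM). KO 1 was far above the other KO libraries for Igfbp5 (3180 CPM), Pecam1 (15.2 CPM) and Cdh5 (20.4 CPM). Single values apart were Ndufa1 in KO 5 (22.1 CPM) and Pparg in WT 2 (3.08 CPM).

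The KO effect at 8 days differed from that at 21 days for Dcx (-2.42, edgeR adjusted p = 0.03) and Myo18b (-1.95, adjusted p = 0.03) on the log2 scale.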

How the results depend on the processing

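RLE size factors and no filter kept each count of genes within 1.5 times the main count. The 35 named genes called without KO 2, and Dcx and Myo18b, kept their direction in every alternative run for them. Among named genes that were not called, side as a term turned Fos (1.02 to -0.37), Fosb (1.15 to -0.17), Pdgfrb (1.00 to -0.56), Rgs5 (1.31 to -0.50), Tnmd (1.26 to -0.71), Cdkn1a (-0.01 to 0.38), Mcm3 (-0.11 to 0.09) and Top2a (-0.09 to 0.06). Mki67, Top2a, Cdkn1a and Ifit2 differed in sign with and without KO 2. DESeq2 gave more calls: 20 with all 8 day libraries, 303 without KO 2, 44 for the difference between the ages and 700 at 21 days. Side of the first component as a term, chosen after seeing the data, gave 53 without KO 2 and 0 with it. The difference between the ages without KO 2, also added later, gave 4. Leaving out 1 library gave 0 to 81 genes with all 8 day libraries (81 without KO 2), 12 to 338 without KO 2, 0 to 8 for the difference between the ages and 154 to 522 at 21 days. Where 1 library was left out, the calls of those 35 genes, Dcx and Myo18b held in 196 pairs of gene and library and were lost in 153. No paired analysis was possible because the columns carry no replicate number that WT and KO share. A sex term was not run, since all 8 day libraries are male. Dropping KO columns where either Foxo gene is at the WT level left out the same library. Depth was at least 17.7 M counts per library, and genes under 1 CPM rest on few counts.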
